A study of Mus musculus with 8 samples.

Results

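The cell cycle and DNA replication genes described here are 38 genes chosen by name, from the marker of cycling cells Mki67 through the G1 cyclins and the replication machinery to the kinases and motors of mitosis. All 38 were found among the 55385 genes of the count table, and all 38 passed the filter on low counts that left 17537 genes to be tested. With IgG, none of the 38 met the criterion of the study, an unadjusted p-value under 0.01 with an absolute log2 fold change above 0.5, which 0.844% of the tested genes met. The transcripts of the proliferation marker Mki67 averaged 38.6 ± 2.65 CPM (counts scaled to the library size, SD, n = 4) in control microglia and 40.5 ± 11.6 CPM (SD, n = 4) with IgG. The differences farthest from 0 in either direction were 0.36 on the log2 scale for Mcm6, a subunit of the replicative helicase, and -0.30 for Plk1, a kinase of mitotic entry.

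The libraries were made from primary cultured microglia, the resident macrophages of the brain, of wild-type mice. Cells of the neocortex and hippocampus of several newborn mice were pooled, grown in a flask with serum for 12 days, shaken off, and kept in a plate for 3 days. Of the 8 libraries, 4 were labelled untreated (the study's methods name PBS) and are called control, and 4 were from cells given 10 µg/ml IgG at day 15 in vitro (DIV15) for 24 h. Each IgG library shares its number, and its date in the labels, with 1 control library, and the 2 are called a pair. The study's methods give how many brains were pooled for a culture, but which cultures fed a library, and whether a date was a separate culture, are not given in the sources used here, so p-values measure the spread between these libraries, which may in part be technical. The comparison asks how 24 h of IgG altered transcript levels in these cells.

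In a dividing cell, D-type cyclins with their kinases, and then cyclin E, inactivate the retinoblastoma protein in G1, which frees E2F factors to switch on the genes of DNA replication. The MCM helicase is loaded on origins in G1 and fires in S phase, and a later wave of genes, read through CHR elements in their promoters, drives mitosis. Microglia divide in the postnatal brain and in culture with growth factors, and inhibitors such as p21 and p27 hold cells out of the cycle.

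Library totals ran from 21287816 to 23703216 counts. Markers of microglia summed to 9016 to 10455 CPM in control and 10415 to 11211 CPM in IgG libraries. Oligodendrocyte lineage transcripts were present in both groups, with sums of 1328 to 1993 CPM in control and 1166 to 1884 CPM in IgG libraries over 10 genes, led by Mbp. Of 8 genes of fibroblasts and meningeal cells, Fn1 made up nearly all of the sum (666 to 1266 CPM in control and 586 to 851 CPM in IgG libraries), and the other members were at or below 3.68 CPM. Astrocyte, neuron and endothelial lists, led by Gfap, Map2 and Flt1, stayed at or below 216 CPM in every library, and Gjb6, Slc17a7, Lum, Cldn5, Tek, Kcnj8 and Cd163 had at most 3 counts in each. In bulk RNA it cannot be told which of these cells carried the cell cycle transcripts, nor can fewer dividing cells be told apart from less RNA per cell. IgG libraries 1 and 3 stood apart from the others, with 4.85% and 5.59% of their counts on mitochondrial genes against 1.97% to 2.41% in the other 6, and with the highest levels of Siglec1 (725 and 641 CPM, against 231 to 406 CPM) and Mrc1 (101 and 98.6 CPM, against 42.7 to 75.03 CPM) of the border-associated macrophage list. Of that list's other 4 members, Pf4 (4.44 to 7.83 CPM) was lowest in IgG library 1, and Lyve1, Cd163 and F13a1 were at or below 0.78 CPM in every library.

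Promoter sequence was available for 29 of the 38 genes in RefSeq (GRCm38.p6), and the 250 bases upstream of the start site were searched for the 2 element types of the G1/S and G2/M programmes. An E2F-type match, counted as TTTCCCGC, TTTGGCGC, TTTCGCGC or TTTGCCGC on either strand, was found in 5 of the 29 (17.2%), namely Mcm5, Mcm6, Mcm7, Cdc6 and Cdk1, against 1.86% of all 32851 promoters of this length. The CHR letters TTTGAA, on either strand, were found in 7 of the 29 (24.1%), Mki67, Mcm2, Ccnb2, Cdk1, Top2a, Cdc20 and Kif11, against 16.0% of all promoters. CCAAT on either strand was in 22 of the 29 (75.9%) against 33.8%. The E2F-type matches lay in 4 of the 7 promoters of the licensing and fork group and in none of the 5 of the G1 group or the 8 of the chromosome and spindle group that were available. These matches describe the letters and not binding.

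The promoters of 4 genes are printed, picked for the traits that follow. Mcm6 had the largest log2 difference among the 38 and carries E2F-type but no CHR letters. Cdk1 carries both kinds of letters and had a log2 difference of -0.08. Mki67 and Top2a carry CHR letters and, like Mcm6, were highest in IgG libraries 1 and 3. Both were lowest in IgG library 4, where Mcm6 was above the controls. Of the other genes with CHR letters, Kif11 was also highest in libraries 1 and 3, Cdc20 was lowest there, and Mcm2, Ccnb2 and Cdk1 were neither. Capitals mark the E2F-type letters in Mcm6 (overlapping matches on both strands form the longer run), the CHR letters in Mki67 and Top2a, and both in Cdk1.
Mcm6, chr1:128359706-128359955, minus strand: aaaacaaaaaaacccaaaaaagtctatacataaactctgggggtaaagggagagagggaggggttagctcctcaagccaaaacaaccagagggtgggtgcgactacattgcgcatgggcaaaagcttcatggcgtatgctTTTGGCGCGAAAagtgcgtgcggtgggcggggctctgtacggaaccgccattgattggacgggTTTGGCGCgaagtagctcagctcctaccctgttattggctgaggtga
Cdk1, chr10:69352913-69353162, minus strand: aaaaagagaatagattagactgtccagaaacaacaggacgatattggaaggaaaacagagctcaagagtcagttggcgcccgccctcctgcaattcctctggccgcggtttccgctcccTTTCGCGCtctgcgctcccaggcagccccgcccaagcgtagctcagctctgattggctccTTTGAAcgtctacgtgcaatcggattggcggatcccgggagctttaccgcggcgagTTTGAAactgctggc
Mki67, chr7:135716380-135716629, minus strand: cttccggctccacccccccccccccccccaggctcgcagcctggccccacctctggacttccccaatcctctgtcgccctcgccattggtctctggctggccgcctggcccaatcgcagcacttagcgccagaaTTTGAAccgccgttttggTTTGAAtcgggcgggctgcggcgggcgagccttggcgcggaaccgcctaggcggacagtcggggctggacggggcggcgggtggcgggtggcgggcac
Top2a, chr11:99024190-99024439, minus strand: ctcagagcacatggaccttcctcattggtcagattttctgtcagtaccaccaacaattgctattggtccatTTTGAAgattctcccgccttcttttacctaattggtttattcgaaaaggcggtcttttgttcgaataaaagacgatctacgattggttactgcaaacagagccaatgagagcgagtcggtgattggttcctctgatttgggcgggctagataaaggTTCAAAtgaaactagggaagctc

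Levels were compared between genes as CPM per kilobase of exon (CPM per kb). In control libraries the 38 genes ran from 0.331 ± 0.0383 CPM per kb (SD, n = 4) for Cenpf, a kinetochore protein of large size, to 94.3 ± 4.19 CPM per kb (SD, n = 4) for Pcna, the sliding clamp of the replication fork. Their median of 3.53 CPM per kb compared with 4.31 CPM per kb over all tested genes, and 13 of the 38 lay above the latter. Pcna was followed by the G1 cyclin Ccnd1 at 35.6 ± 1.61 CPM per kb and by Cdkn1a, which encodes the CDK inhibitor p21, at 32.2 ± 2.23 CPM per kb, and these last levels, unlike those of Pcna and Ccnd1, lay within their spread of each other. Genes of mitosis measured 4.01 ± 0.232 CPM per kb for the mitotic kinase Cdk1, 3.83 ± 0.263 for Mki67, 3.60 ± 0.0878 for Top2a and 1.21 ± 0.0842 for the checkpoint kinase Bub1 (SD, n = 4). Every member was counted at no less than 58 counts in any library, a value reached by Ccnb2. Some of these genes could share reads with others, since 67.3% of the exon bases of Gins2 overlap Gse1 on the other strand, 23.4% of Ccnd1 overlap LTO1 and 17.4% of Ccne2 overlap Ints8, and since the pseudogene Pcna-ps2 had 1434 to 1824 counts of its own.

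**Figure D1:**
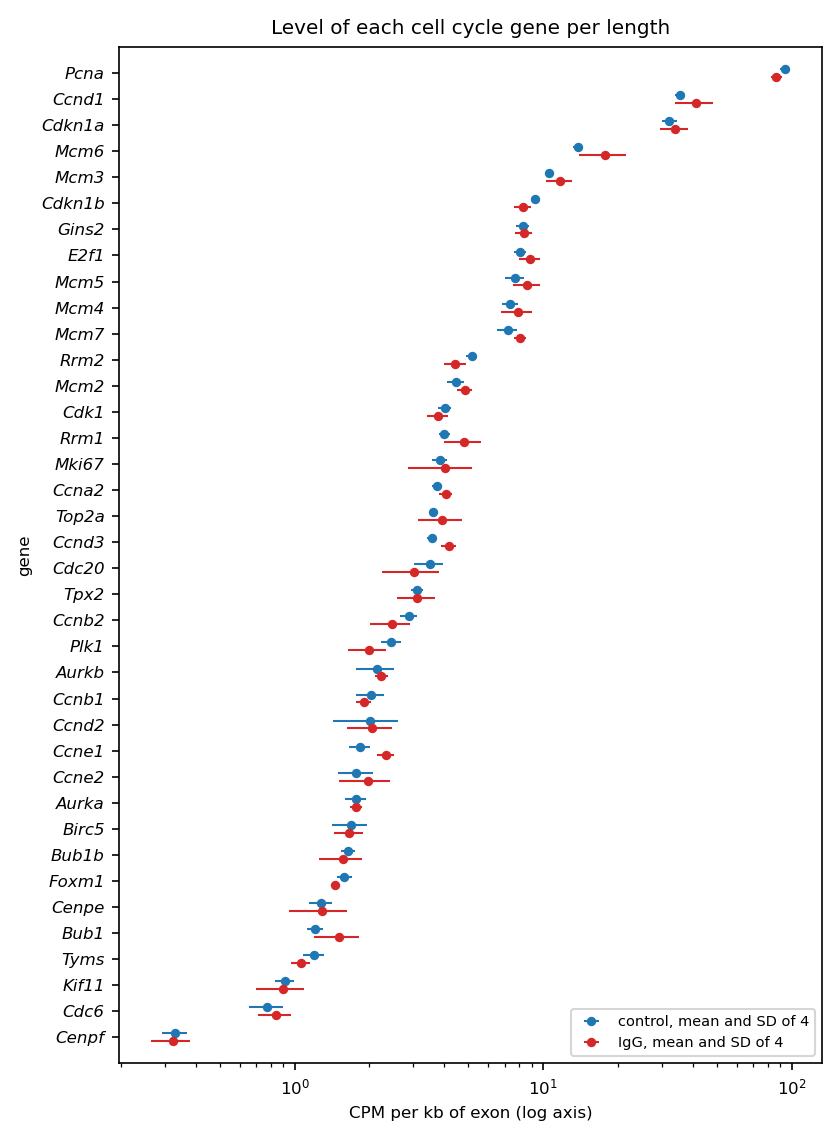
Level of the 38 genes per exon length (horizontal log axis, CPM per kb), as mean and SD of 4 control (blue) and 4 IgG libraries (red), ordered by the control mean. Pcna is at the top and Cenpf at the bottom, and the group means of each gene lie close together on this scale.

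Across the 38 genes the log2 fold change with IgG ran from -0.30 to 0.36 with a median of 0.04, beside 0.00 over all tested genes. The value was above 0 for 24 genes and below 0 for 14, and with total-count scaling, which moved the median of all genes to -0.09, above 0 for 15 and below for 23. Of all genes 50.7% were above 0, and 31.8% with total-count scaling. In edgeR's quasi-likelihood test no member had an adjusted p-value under 0.05, the smallest being 0.692, and no gene of the whole table did either (0% of 17537, with 7.01% at an unadjusted p-value under 0.05). At an unadjusted p-value under 0.05, 3 members were higher with IgG (Ccnd3, Ccne1 and Mcm6) and 0 were lower, where 4.83% and 2.18% of all genes were. With total-count scaling 0 were higher and 3 lower (Cdkn1b, Pcna and Rrm2), and with the trends on exon length and GC content removed the first 3 were higher and the same 3 lower. DESeq2 also gave 0 members with an adjusted p-value under 0.05, with and without the block. With the pairs as a replicate block no member was called (1.82% of all genes were), the smallest adjusted p-value among the members was 0.427, and 69 genes of the table passed adjustment (0.393%). That block brought Rrm1 below an unadjusted p-value of 0.05 as well, to make 4 members higher and 0 lower (6.35% and 3.85% of all genes, 10.2% in either direction). Of these 4, Mcm6 alone was at that level with DESeq2 and the block and with all genes with a count, and none was with total-count scaling. With a pair left out of the blocked fit, none of the 4 was without pair 1 or pair 3, Mcm6 was without pair 2, and Mcm6 and Rrm1 were without pair 4.

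The median SE of the log2 fold change was 0.131 over the 38 genes and 0.164 over all tested genes. The 95% interval of the fold change lay within 2-fold in either direction for all 38 members (83.4% of all genes) and within 1.5-fold for 32 (56.5%), and with the replicate block for 38 (85.8%) and 31 (60.4%), so changes of the group mean beyond 2-fold lie outside every interval. The 6 members with wider intervals than 1.5-fold were Ccne1, Mcm6, Ccnb2, Plk1, Bub1 and Cdc20. Every IgG library lay above every control library for 2 members, Ccnd3 and Ccne1 (2.6% of all genes), and below for 0 (1.57%). Within the pairs, 6 members were higher with IgG in all 4 pairs (Ccnd3, Ccne1, Mcm7, Rrm1, Ccna2 and Bub1, against 10.4% of all genes), and 2 were lower in all 4 (Foxm1 and Plk1, against 8.47%).

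**Figure D2:**
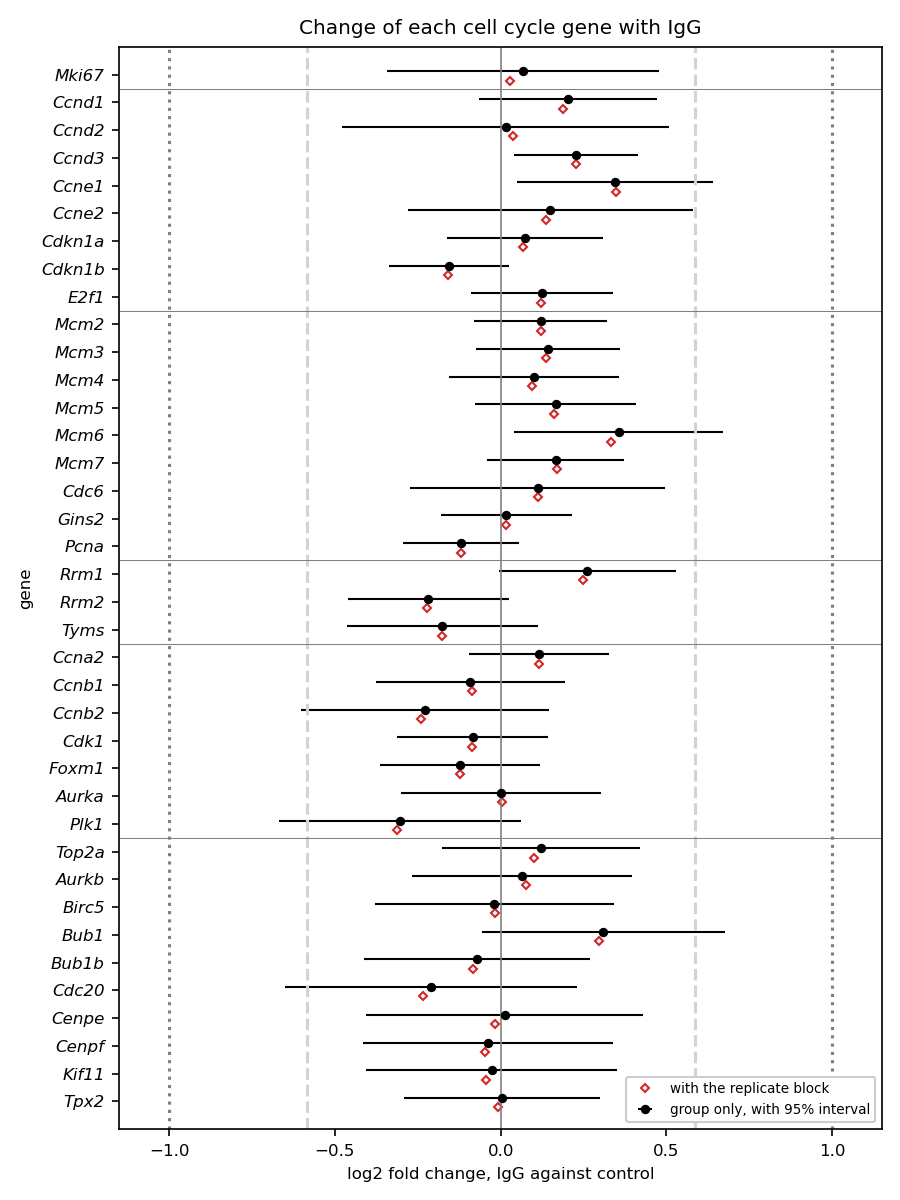
Log2 fold change of each of the 38 genes, IgG against control (horizontal axis), from the fit with the group only (black, with 95% interval, 4 libraries a group) and with the replicate block (red diamonds), grouped by role. Dashed grey lines mark 1.5-fold and dotted lines 2-fold in either direction, and no interval reaches the dotted lines.

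G1 regulators came first in the order of the cycle, and 7 of these 8 genes had a log2 fold change above 0, with a median of 0.14 (5 of 8 and 0.03 with total-count scaling). Of the 8, 2 were higher at an unadjusted p-value under 0.05 (4.83% of all genes were), and neither was with total-count scaling. Ccnd3 encodes cyclin D3, a partner of the G1 kinases (ENSMUSG00000034165, chromosome 17, 47505051 to 47599691, plus strand, GRCm38). It measured 31.6, 29.3, 32.5 and 31.6 CPM in control libraries 1 to 4 and 38.2, 33.3, 35.6 and 39.2 CPM in IgG libraries 1 to 4. All IgG libraries lay above all control libraries, and every pair was higher with IgG. For Ccnd3 the log2 fold change was 0.23 (SE 0.08, 95% interval 0.04 to 0.41), and its adjusted p-value by edgeR was 0.692. The unadjusted p-value was no longer under 0.05 without control library 2 (log2 fold change 0.20), control library 4 (0.22) or IgG library 1 (0.21).

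Ccne1 encodes cyclin E1, which drives entry into S phase (ENSMUSG00000002068, chromosome 7, 38097984 to 38107534, minus strand). Its level was 4.81, 5.10, 5.36 and 4.26 CPM in control libraries 1 to 4 and 5.73, 5.87, 6.58 and 6.65 CPM in IgG libraries 1 to 4. The groups did not overlap, and the widest gap within a pair was in pair 4. Its log2 fold change was 0.35 (SE 0.13, 95% interval 0.05 to 0.64), with an adjusted p-value of 0.692 in edgeR's test. The unadjusted p-value was no longer under 0.05 without control library 1 (log2 fold change 0.34), control library 4 (0.27), IgG library 3 (0.32) or IgG library 4 (0.31). Ccne2, the second E-type cyclin, had a log2 fold change of 0.15 (SE 0.19, 95% interval -0.28 to 0.58), with 2 pairs higher and 2 lower.

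Ccnd1, which encodes cyclin D1, the D-type cyclin with the highest level per kb here, measured 161, 162, 171 and 177 CPM in control libraries 1 to 4 and 224, 162, 219 and 167 CPM in IgG libraries 1 to 4. Only IgG libraries 1 and 3 were above the control libraries, and IgG libraries 2 and 4 were within their range. The log2 fold change of Ccnd1 was 0.20 (SE 0.12, 95% interval -0.07 to 0.47). In every library it exceeded Ccnd2 per kb, by 13.96- to 30.99-fold, and Ccnd3 exceeded Ccnd2 by 1.34- to 2.83-fold.

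The CDK inhibitors had values on either side of 0. Cdkn1a, encoding p21, measured 118, 104, 123 and 114 CPM in control libraries 1 to 4 and 129, 103, 113 and 136 CPM in IgG libraries 1 to 4. These ranges overlapped, and the log2 fold change was 0.07 (SE 0.11, 95% interval -0.16 to 0.31). Cdkn1b, encoding p27, which restrains G1 kinases in resting cells, measured 41.8, 41.2, 42.3 and 42.7 CPM in control libraries 1 to 4 and 36.1, 42.2, 35.98 and 36.5 CPM in IgG libraries 1 to 4. IgG libraries 1, 3 and 4 lay below every control library and IgG library 2 within their range, with a log2 fold change of -0.16 (SE 0.08, 95% interval -0.34 to 0.02). E2f1, the transcription factor that the retinoblastoma protein holds in check, had a log2 fold change of 0.13 (SE 0.10, 95% interval -0.09 to 0.34) and was higher in 3 of 4 pairs.

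**Figure D3:**
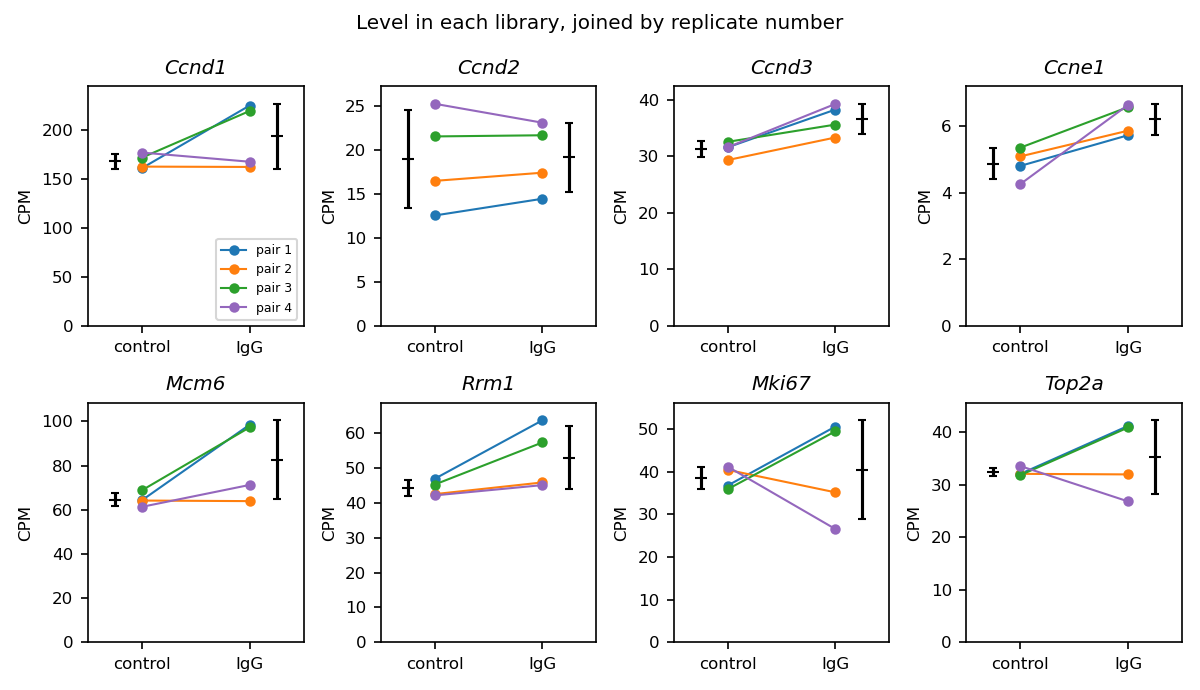
Level in each library (vertical axes from 0, CPM) of 8 genes in the control and IgG groups, with lines joining the 2 libraries of a pair and bars for the mean and SD of 4. The lines of Ccnd3 and Ccne1 go up in all 4 pairs, those of Ccnd1, Mcm6, Rrm1, Mki67 and Top2a go up mostly in pairs 1 and 3, and the pairs of Ccnd2 stay apart in both groups.

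Genes of replication licensing and the fork had a median log2 fold change of 0.12, with 8 of the 9 above 0 (0.02 and 6 of 9 with total-count scaling). Of the 9, 1, Mcm6, was higher at an unadjusted p-value under 0.05 (4.83% of all genes were), and not with total-count scaling. Mcm6 is a subunit of the hexameric MCM helicase that unwinds DNA (ENSMUSG00000026355, chromosome 1, 128331590 to 128359664, minus strand). It measured 64.3, 64.2, 68.8 and 61.3 CPM in control libraries 1 to 4 and 98.5, 63.9, 97.3 and 71.2 CPM in IgG libraries 1 to 4. IgG libraries 1 and 3 lay far above all others, library 4 just above the controls and library 2 within them. Its log2 fold change was 0.36 (SE 0.14, 95% interval 0.04 to 0.67) with an adjusted p-value of 0.692 by edgeR, and it was 0.26 without IgG library 1 and 0.27 without IgG library 3. The unadjusted p-value was not under 0.05 in these last fits, nor without control library 1, 2 or 4 (0.35, 0.35 and 0.32).

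The other subunits of the helicase had smaller values. Mcm2, Mcm3, Mcm4, Mcm5 and Mcm7 had log2 fold changes of 0.12, 0.14, 0.10, 0.17 and 0.17, each with an interval that includes 0. Of these, Mcm7 was higher in all 4 pairs, at 31.9 ± 3.00 against 35.7 ± 1.99 CPM (SD, n = 4). Cdc6, which loads the helicase on origins, measured 4.05 ± 0.628 and 4.38 ± 0.671 CPM (SD, n = 4), and Gins2, part of the active helicase, 33.9 ± 2.10 and 34.3 ± 2.80 CPM (SD, n = 4). Pcna, the clamp that holds the polymerases on DNA, measured 236, 220.1, 233 and 215 CPM in control libraries 1 to 4 and 203, 213, 197 and 220.3 CPM in IgG libraries 1 to 4. It was lower in 3 pairs with overlapping groups, and its log2 fold change was -0.12 (SE 0.08, 95% interval -0.29 to 0.05).

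Nucleotide supply was covered by 3 genes with values on both sides of 0. Rrm1, the large subunit of ribonucleotide reductase, which makes deoxynucleotides, measured 46.8, 42.4, 45.2 and 42.1 CPM in control libraries 1 to 4 and 63.6, 45.8, 57.2 and 45.02 CPM in IgG libraries 1 to 4. It was higher in all 4 pairs, mostly in pairs 1 and 3. The log2 fold change was 0.26 (SE 0.12, 95% interval -0.01 to 0.53) without and 0.25 with the replicate block, where the adjusted p-value was 0.467 by edgeR. Rrm2, the small subunit of the same enzyme, measured 14.6, 14.97, 14.2 and 13.4 CPM in control libraries 1 to 4 and 12.6, 12.04, 10.7 and 13.7 CPM in IgG libraries 1 to 4. It was lower in 3 of 4 pairs, with a log2 fold change of -0.22 (SE 0.11, 95% interval -0.46 to 0.02), so that the large subunit lay higher and the small one lower with IgG, neither past the adjusted threshold. Tyms, the thymidylate synthase, had a log2 fold change of -0.18 (SE 0.13, 95% interval -0.46 to 0.11), with 2 pairs in each direction.

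Genes of mitotic entry had a median log2 fold change of -0.09, with 2 of 7 above 0 (-0.19 and 1 of 7 with total-count scaling) and none at an unadjusted p-value under 0.05. Plk1, the polo-like kinase that triggers mitosis, measured 5.14, 5.95, 5.65 and 4.82 CPM in control libraries 1 to 4 and 3.38, 5.26, 4.32 and 4.51 CPM in IgG libraries 1 to 4. It was lower with IgG in all 4 pairs, most so in pair 1, while the groups overlapped through IgG library 2. For Plk1 this gave a log2 fold change of -0.30 (SE 0.16, 95% interval -0.67 to 0.06). Foxm1, a transcription factor of the mitotic genes, had all 4 pairs lower too and a log2 fold change of -0.12 (SE 0.11, 95% interval -0.36 to 0.12).

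Cdk1, the kinase of mitosis, measured 18.3, 19.8, 20.01 and 21.1 CPM in control libraries 1 to 4 and 19.8, 17.1, 17.1 and 20.7 CPM in IgG libraries 1 to 4. The groups overlapped, with a log2 fold change of -0.08 (SE 0.10, 95% interval -0.31 to 0.14). Ccna2, Ccnb1 and Ccnb2, the cyclins that bind Cdk1 from S phase to mitosis, had log2 fold changes of 0.12, -0.09 and -0.23, of which Ccna2 was higher in all 4 pairs with overlapping groups. Aurka, a centrosome kinase, measured 4.48 ± 0.430 and 4.48 ± 0.242 CPM (SD, n = 4) in control and IgG libraries.

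Genes of chromosomes and the spindle had a median log2 fold change of -0.01, with 5 of 10 above 0 (-0.11 and 2 of 10 with total-count scaling) and none at an unadjusted p-value under 0.05. Top2a, the topoisomerase that untangles replicated chromosomes, measured 32.1, 32.1, 31.9 and 33.6 CPM in control libraries 1 to 4 and 41.2, 32.00, 40.9 and 26.9 CPM in IgG libraries 1 to 4. The control libraries lay close together, IgG libraries 1 and 3 above them and IgG library 4 below. Over the groups the log2 fold change of Top2a was 0.12 (SE 0.13, 95% interval -0.18 to 0.42). Bub1, a kinase of the spindle checkpoint, measured 5.39, 4.83, 5.69 and 5.17 CPM in control libraries 1 to 4 and 7.17, 5.43, 8.15 and 5.42 CPM in IgG libraries 1 to 4. It was higher in all 4 pairs, mostly in pairs 1 and 3, with a log2 fold change of 0.31 (SE 0.16, 95% interval -0.06 to 0.68), the third largest among the 38.

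Bub1b, which encodes BubR1 of the same checkpoint, had a log2 fold change of -0.07, and Cdc20, the activator of the complex that ends mitosis, one of -0.21. Aurkb and Birc5, the kinase and the survivin subunit of the chromosomal passenger complex, measured 6.30 ± 1.09 against 6.58 ± 0.385 and 5.73 ± 0.923 against 5.65 ± 0.760 CPM (SD, n = 4). The kinetochore genes Cenpe and Cenpf, the spindle motor Kif11 and the spindle factor Tpx2 had values of 0.01, -0.04, -0.03 and 0.00. For all 8 the intervals included 0.

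Mki67 encodes Ki-67, the nuclear protein used to count cycling cells (ENSMUSG00000031004, chromosome 7, 135689784 to 135716361, minus strand). It measured 36.7, 40.5, 35.9 and 41.2 CPM in control libraries 1 to 4 and 50.6, 35.2, 49.5 and 26.6 CPM in IgG libraries 1 to 4. IgG libraries 1 and 3 lay above all controls, and IgG libraries 2 and 4 below all of them. The log2 differences in pairs 1 to 4 were 0.46, -0.20, 0.46 and -0.63, so the gene had no common direction, and the log2 fold change of the group was 0.07 (SE 0.18, 95% interval -0.34 to 0.48). It changed sign without IgG library 1 (-0.06), without IgG library 3 (-0.04), with total-count scaling (-0.05) and once trends on exon length and GC content were removed (-0.02).

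The high levels of Mki67 in IgG libraries 1 and 3 recurred in other members. Of these, Cenpe, Kif11 and Tpx2 also had IgG libraries 2 and 4 below every control library, as Mki67 did. The share of all genes with that full split was not taken. IgG libraries 1 and 3 held the 2 highest levels of all 8 libraries for 15 of the 38 genes (39.5%, against 25.6% of all genes), among them Mcm3, Mcm4, Mcm5, Mcm6, Mcm7, Rrm1, Top2a and Bub1, and the 2 lowest for 5 (13.2%, against 22.4%), namely Cdkn1b, Pcna, Foxm1, Plk1 and Cdc20. With levels scaled by total counts alone, a comparison added after seeing the data, the top 2 were held for 7 genes (18.4%, against 15% of all genes), namely Mki67, Ccnd1, Mcm5, Mcm6, Rrm1, Top2a and Bub1, and the bottom 2 for 11 (28.9%, against 34.2%). The 38 genes took 0.122% of all counts in IgG library 1 and 0.119% in IgG library 3, within the 0.116% to 0.123% of the other 6. Higher values in 26, 11, 25 and 20 of the 38 genes, and medians of 0.19, -0.06, 0.11 and 0.03 on the log2 scale, were found in pairs 1, 2, 3 and 4. Of all genes 51.3%, 50.4%, 51.5% and 50.1% were higher in these pairs, with medians of 0.01, 0.00, 0.02 and 0.00. These pair values use TMM scaling, and no version with total-count scaling was made. In all, 10 members were higher in pairs 1 and 3 and lower in pair 4 (26.3%, against 24.2% of all genes). IgG libraries 1 and 3 are also those with the mitochondrial, Siglec1 and Mrc1 values given above, and the part of these in the pattern was not tested.

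**Figure D4:**
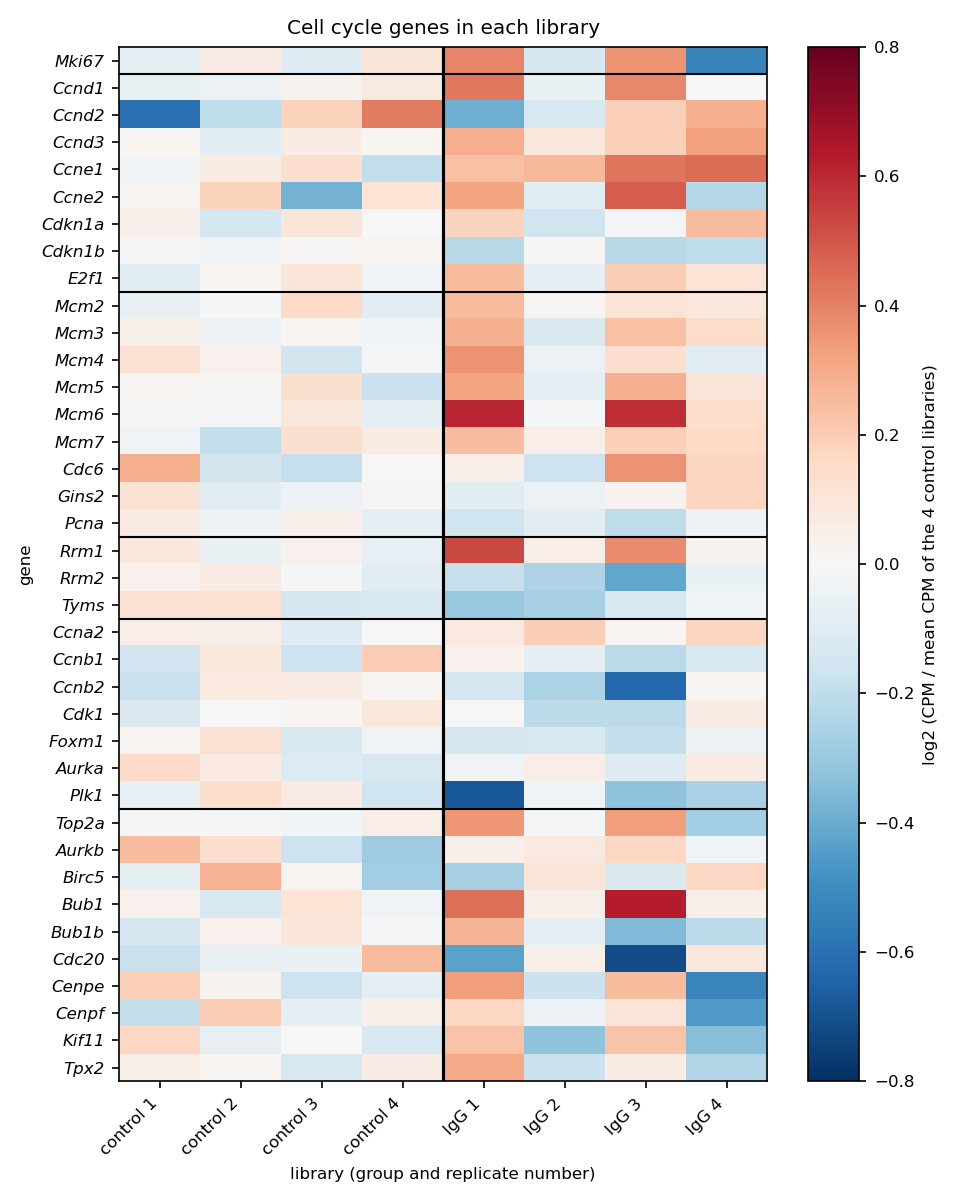
Colour gives the log2 ratio of each library's CPM to the mean of the 4 control libraries, for 38 genes (rows, grouped by role) and 8 libraries (columns, control left of the vertical line). Red columns for IgG 1 and IgG 3 are seen in Mki67, Ccnd1, Mcm6, Rrm1, Top2a and Bub1, while Ccnd2 is blue in replicate 1 and red in replicate 4 of both groups.

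The change within a pair also went with the length of the gene in pairs 1, 3 and 4. Across the 38 genes the Spearman correlation of the change with exon length was 0.45, 0.03, 0.42 and -0.32 in pairs 1 to 4, beside 0.24, -0.03, 0.25 and -0.45 over 14134 genes above a log2 CPM of 1. With GC content it was -0.16, 0.24, -0.33 and 0.52 for the members, beside -0.44, -0.03, -0.43 and 0.36 over all these genes. Genes share their libraries in these values and are not independent. The 10 members higher in pairs 1 and 3 and lower in pair 4 had a median exon length of 8040.5 bases and included Mki67, Top2a, Cenpe and Cenpf. With the trends on length and GC removed, the log2 fold change of Mcm6 was 0.31, that of Ccnd1 0.20 and that of Bub1 0.21. For the 7 longest of the 38 genes it was -0.12 for Cenpf, 0.18 for Rrm1, -0.02 for Mki67, -0.0030 for Ccnd2, 0.03 for Top2a (0.12 before), 0.26 for Ccnd3 and -0.10 for Cenpe.

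**Figure D5:**
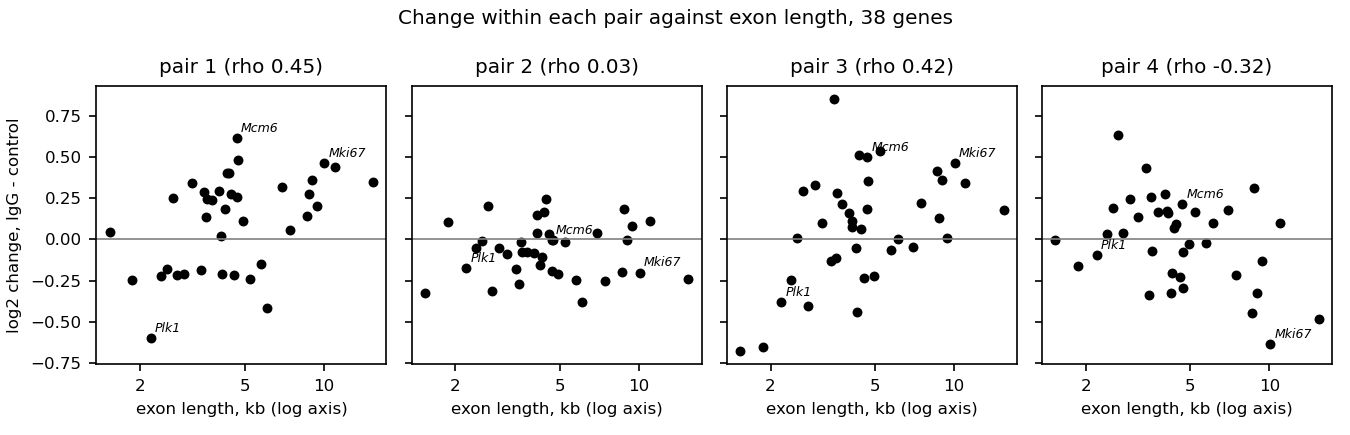
Log2 change within each pair (vertical axis, IgG minus control) against exon length (horizontal log axis, kb) for the 38 genes, 1 panel a pair, with Spearman's rho. The long genes Mki67, Top2a, Cenpe and Cenpf lie above 0 in pairs 1 and 3 and below 0 in pair 4. Ccnd3 and Rrm1, also long, lie above 0 in every panel, and Ccnd2 lies near 0 in pair 3.

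Among the 38, Ccnd2 was the 1 gene at an unadjusted p-value under 0.05 for a difference between the dates (9.81% of all genes were). Ccnd2 encodes cyclin D2, a further partner of the G1 kinases (ENSMUSG00000000184, chromosome 6, 127125162 to 127152193, minus strand). It measured 12.6, 16.5, 21.6 and 25.3 CPM in control libraries 1 to 4 and 14.5, 17.4, 21.7 and 23.1 CPM in IgG libraries 1 to 4. Pair 1 was lowest and pair 4 highest in both groups, and the log2 fold change with IgG was 0.02 (SE 0.22, 95% interval -0.48 to 0.51). The group means of 18.98 ± 5.59 and 19.2 ± 3.96 CPM (SD, n = 4) differed by less than the spread between the dates. The F test of the replicate number in edgeR's fit with the block gave an adjusted p-value of 0.117, while 171 genes (0.975%) passed at an adjusted p-value under 0.05. DESeq2's likelihood ratio test gave an adjusted p-value of 0.0224, and without replicate 1 edgeR's was 0.628, while over all alternatives it ranged from 0.0161 to 0.628.

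A further list of 117 genes of the same pathways, all of them tested, had a median log2 fold change of 0.02, with 65 above 0 and 52 below. Of these 1 met the criterion of the study, lower with IgG (0.262% of all genes did), and edgeR gave none of them an adjusted p-value under 0.05, with or without the block. At an unadjusted p-value under 0.05, 1 was higher and 2 were lower (Cenpa and Espl1), where 4.83% and 2.18% of all genes were. The groups did not overlap for 2 of the 117 that were higher and 2 that were lower (2.6% and 1.57% of all genes). The gene that met the criterion was Cenpa, the histone variant that marks centromeres (ENSMUSG00000029177, chromosome 5, 30666777 to 30674830, plus strand). It measured 18.7, 20.8, 18.00 and 18.8 CPM in control libraries 1 to 4 and 9.43, 16.00, 8.15 and 14.5 CPM in IgG libraries 1 to 4. Every IgG library lay below every control library, most so libraries 1 and 3. The fit gave a log2 fold change of -0.66 (SE 0.20, 95% interval -1.11 to -0.21) for Cenpa and an adjusted p-value of 0.692 by edgeR.

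With the replicate block Cenpa had a log2 fold change of -0.71 and an adjusted p-value of 0.168, and with DESeq2 and the block an adjusted p-value of 0.0102. Its p-value was above 0.01 when any 1 control library was left out, without IgG library 1 (log2 fold change -0.56), without IgG library 3 (-0.52) and with the length and GC trends removed. Over all alternatives its log2 fold change ranged from -0.84 to -0.52, and its adjusted p-value from 0.0102 to 0.9998.

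The others lay on either side of 0. Espl1, the protease that parts sister chromatids, measured 7.30, 7.80, 7.24 and 8.91 CPM in control libraries 1 to 4 and 6.38, 5.83, 5.50 and 6.37 CPM in IgG libraries 1 to 4. The groups did not overlap, and the log2 fold change was -0.38 (SE 0.13, 95% interval -0.66 to -0.10), with an adjusted p-value of 0.692 in edgeR's test. Of the 25 genes of polymerases, fork proteins and nucleotide enzymes, 21 had values above 0 with a median of 0.07 (50.7% of all genes did), but 8 with a median of -0.03 with total-count scaling. Of the 15 genes of origin licensing and firing 11 did with a median of 0.12, and 8 with a median of 0.02 with total-count scaling. With that scaling 31.8% of all genes were above 0. Of the 21 genes of mitotic kinases, checkpoint and kinetochore, 14 had values below 0 with a median of -0.03 (49.3% of all genes did). With total-count scaling 15 did with a median of -0.13, beside 11964 of all 17537 genes with a median of -0.09. The 12 genes that p53 switches on, with Ccng1 at 0.36, had a median of -0.02 and none below an unadjusted p-value of 0.05.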

How the data were processed

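Microglial RNA-seq libraries, 4 control and 4 IgG, were grouped and paired by their labels. Per the labels and the study's methods, mRNA was enriched with oligo(dT) beads and made into libraries with the NEBNext Ultra RNA kit. The processing notes name HISAT2 2.2.1, SAMtools 1.12, Picard 2.26.3, featureCounts, R 4.1.2 and edgeR 3.36.0, with the build GRCm38 (mm10). The authors deposited whole-number counts per Ensembl gene, without normalization or filter. The annotation used for counting, the treatment of reads with several alignments and the use of strand are not given in the sources used here, so counts of overlapping genes, and of genes with near-identical pseudogenes, are uncertain as single genes. At these totals a count of 0 allows up to 3 counts, or 0.127 to 0.141 CPM, for counting error only.

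Symbols, coordinates, exon lengths (union of all exons) and GC content came from GENCODE M21 (mm10), in which 55144 of the 55385 identifiers were found. Counts were scaled with TMM, filtered with filterByExpr (17537 genes), and fitted by group alone in edgeR 4.0.16 (R 4.3.3), whose quasi-likelihood test gave the p-values. All tested genes entered the Benjamini-Hochberg adjustment. CPM values use the TMM-scaled library sizes, and a change within a pair is the IgG minus the control log2 CPM (prior count 2). The 95% intervals use the SE and degrees of freedom of the same fit. The members of the list, the further lists and the tests were chosen with earlier results of these data known. All 38 members are named. Of the further pathway lists at most the 3 genes with the smallest p-value in each, the 3 with the largest log2 fold change and any past adjustment could be named, and of the marker lists the gene with the highest level, with the other markers named after their values were seen. Single values of 2 genes of these further lists are not reported here.

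The replicate numbers pair the libraries, since both libraries of a number carry 1 date. Deviations from the group means, over 14155 genes, correlated within pairs 1 to 4 at 0.44, 0.38, 0.26 and 0.31, against -0.36 to 0.23 for libraries of different numbers. Within a group the chi-square per degree of freedom between any 2 libraries was at least 5.00, so none was a copy of another. The alternatives were the replicate block, DESeq2 1.42.0, other scalings and filters, the omission of each library or pair, and the removal of lowess trends (span 0.3) on exon length and GC content. The statistics were tested on simulated data.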

Additional observations from a re-analysis of the deposited data

Results flagged for a closer look

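In 2 of 76 groups of 4 libraries (38 genes, control and IgG), 1 library lay so far from the other 3 that its gap exceeded Dixon's 95% critical value, a rate that chance gives in about 1 in 20 groups. Cdkn1b, the gene of the CDK inhibitor p27, was at 42.2 CPM in IgG library 2 and at 36.0 to 36.5 CPM in the other IgG libraries (gap over range 0.916). Top2a was at 33.6 CPM in control library 4 and at 31.9 to 32.1 CPM in the other control libraries (gap over range 0.858).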

How the results depend on the processing

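No alternative, of 21 run, called a member or gave one an adjusted p-value under 0.05, and the median over the members stayed between -0.06 and 0.09, within the spread of the pair medians of its value of 0.04. The log2 fold change of 23 members kept its sign in every alternative, and that of 15 members, none of them above 0.15 in size, did not. The causes of these changes of sign were not tested. For each alternative, the values with the opposite sign were as follows. With the replicate block it was -0.016 for Cenpe and -0.0084 for Tpx2. With DESeq2 it was -0.0055 for Aurka and -0.0025 for Tpx2. With DESeq2 and the replicate block it was -0.0037 for Aurka, -0.024 for Cenpe and -0.015 for Tpx2. With RLE scaling it was -0.0062 for Aurka and -0.0022 for Tpx2. With total-count scaling it was -0.045 for Mki67, -0.083 for Ccnd2, -0.028 for Cdkn1a, -0.0042 for Mcm4, -0.079 for Gins2, -0.095 for Aurka, -0.034 for Aurkb, -0.098 for Cenpe and -0.10 for Tpx2. With all genes with a count it was -0.0063 for Aurka and -0.0027 for Tpx2. With at least 10 counts in every library it was -0.013 for Ccnd2, -0.010 for Gins2, -0.027 for Aurka, -0.019 for Cenpe and -0.027 for Tpx2. With length and GC trends removed it was -0.016 for Mki67, -0.0030 for Ccnd2, -0.0038 for Ccne2, -0.097 for Cenpe and -0.031 for Tpx2. With length and GC trends removed and the replicate block it was -0.026 for Mki67, -0.0055 for Ccnd2, -0.098 for Cenpe and -0.038 for Tpx2. Leaving out a library or a pair gave ranges of -0.12 to 0.23 for Mki67, -0.14 to 0.17 for Ccnd2, -0.10 to 0.28 for Ccne2, -0.013 to 0.14 for Cdkn1a, -0.032 to 0.24 for Cdc6, -0.048 to 0.092 for Gins2, -0.078 to 0.065 for Aurka, -0.034 to 0.18 for Aurkb, -0.18 to 0.086 for Birc5, -0.25 to 0.034 for Bub1b, -0.16 to 0.16 for Cenpe, -0.18 to 0.079 for Cenpf, -0.13 to 0.064 for Kif11 and -0.11 to 0.077 for Tpx2. Total-count scaling moved the median of all genes to -0.09 and left 15 members above 0 and 23 below, with Cdkn1b, Pcna and Rrm2 lower at an unadjusted p-value under 0.05 and none higher. Members at that level numbered 0 without control library 4, and 8 higher and 2 lower without IgG library 2. Of the further pathway genes, the number called lower was 0 with length and GC trends removed and 0 to 3 when a library or pair was left out, and the number called higher was 0 to 1. The number of members that differed between dates was 1 (Ccnd2) with DESeq2, with all genes with a count and with length and GC trends removed. The paired fit changed no call of a member. The lowest counts in a library were 58 for Ccnb2, 73 for Plk1 and 81 for Cdc6 and Cdc20, and how far depth set the width of their intervals was not tested.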
